A study of Mus musculus with 32 samples.

Results

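DNA replication and S-phase genes were followed across 32 mouse livers as a set of 36 genes chosen by name, of 34779 gene names on the array. The choice was made with earlier results of these data known, which limits every count set beside the share of all genes. Their probes were found by the gene name in the array files, and all 36 genes were on the array, with 50 probes. Of these, 34 had a probe that every array of some group of 4 read well above background, and were tested among 21710 genes in all. The remaining 2, Cdc6 and Ccne2, were too dim. The loading factor Cdc6 has a pair of probes that were above background on 1 and 4 of 32 arrays, and the probe of the cyclin Ccne2 was above background on 0 of 32. For 30 members the probe used was above background on all 32 arrays.

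All animals were male C57/BL6 mice, their ages were not given in the sources used here, and each array held Cy3-labelled cDNA from liver RNA of 1 biological replicate. The 8 groups of 4 livers cross 2 diets, 2 treatments and 2 surgical states. Standard diet was compared with a methionine and choline deficient (MCD) diet, a dietary model of steatohepatitis, fed for 3 weeks. Each diet was given alone or with a dual agonist of the GLP1 and glucagon receptors (GLP1R/GCGR), at 4.4 mg/kg/day given on alternate days for 2 weeks before sampling. The same 4 combinations were sampled 2 weeks after removal of 70% of the liver (partial hepatectomy), with diet and agonist continued. The labels name no vehicle for the untreated mice and no sham surgery for the unoperated ones. A bulk liver sample cannot tell more cells of a dividing type from more RNA per cell, which holds for every level below.

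Before a cell copies its DNA, the origin recognition complex with Cdc6 and Cdt1 loads the Mcm2 to Mcm7 helicase on chromatin, and geminin (Gmnn) blocks a second loading. At the start of S phase cyclin E kinase and the GINS complex switch the helicase on, polymerases with the sliding clamp Pcna copy the strands, and ribonucleotide reductase and its partners supply nucleotides. Most of these genes are targets of the E2F factors, of which E2f1 and E2f2 activate and E2f8 represses. Adult hepatocytes rest outside the cycle and re-enter it after loss of liver mass, and immune or stromal cells of an inflamed liver can divide as well.

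The promoters below show E2F-type motifs. The choice by name did not read promoter sequence, but most members are E2F targets, as said above. The share with a motif is therefore not independent of that choice and serves as a description. RefSeq promoter windows (GRCm38.p6), 250 bases before to 50 after the start, were held for 30 of the 36 members. They were searched on both strands for TTTCCCGC, TTTCGCGC, TTTGCCGC and TTTGGCGC, which can overlap each other. A match was present for 12 of these 30 members (40.0%), and for 704 of all 27025 genes of the table (2.6%). The list of 30 further replication genes held it in 9 of 26 (34.6%), and a list of 15 mitosis genes in 1 of 12 (8.33%). Among members that rose on the MCD diet, 6 of 13 held a match (46.2%), and among those tested that did not rise, 5 of 16 (31.2%). The 250 upstream bases are printed for the 4 of these 6 risers whose match lies upstream of the start. Mcm6 lies at chr1:128359706-128359955 (minus strand), Mcm5 at chr8:75109259-75109508 (plus), Uhrf1 at chr17:56304063-56304312 (plus) and Pola1 at chrX:93632156-93632405 (minus). Each runs 5′ to 3′ and ends at the base before the start, and capitals mark the matched letters.
Mcm6: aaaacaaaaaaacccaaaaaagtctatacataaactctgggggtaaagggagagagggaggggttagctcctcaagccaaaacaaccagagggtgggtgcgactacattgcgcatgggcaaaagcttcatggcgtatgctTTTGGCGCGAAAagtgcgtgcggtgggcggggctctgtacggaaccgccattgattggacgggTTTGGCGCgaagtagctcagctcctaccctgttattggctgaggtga
Mcm5: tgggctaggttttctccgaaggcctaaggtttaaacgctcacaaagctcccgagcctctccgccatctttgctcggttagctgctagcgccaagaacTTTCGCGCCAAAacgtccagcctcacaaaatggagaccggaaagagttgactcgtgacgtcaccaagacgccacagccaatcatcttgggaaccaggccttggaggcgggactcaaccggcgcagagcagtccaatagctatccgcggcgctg
Uhrf1: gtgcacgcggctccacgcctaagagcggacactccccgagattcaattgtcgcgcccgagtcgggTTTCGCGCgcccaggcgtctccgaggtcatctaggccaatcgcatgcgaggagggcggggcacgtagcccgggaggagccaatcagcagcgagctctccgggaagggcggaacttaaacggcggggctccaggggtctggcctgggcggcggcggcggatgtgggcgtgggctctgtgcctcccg
Pola1: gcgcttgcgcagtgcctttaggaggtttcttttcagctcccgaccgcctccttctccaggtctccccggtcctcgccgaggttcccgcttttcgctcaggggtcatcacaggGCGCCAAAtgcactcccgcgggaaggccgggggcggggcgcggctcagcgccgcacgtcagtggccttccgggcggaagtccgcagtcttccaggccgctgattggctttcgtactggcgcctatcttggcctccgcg
Mcm6 had 3 matches, the first pair overlapping, with first bases at -110, -106 and -47 from the start. Mcm5 had an overlapping pair at -153 and -149, Uhrf1 1 match at -185 and Pola1 1 at -138. A match of letters is a description of these windows and was not tested as a binding site.

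Values are log2 of the array's processed signal minus that array's 75th percentile, so 0 is the brightness below which 75% of the spots of an array lie. A difference of 1 is a doubling of signal, and probes differ in brightness per molecule, so levels are compared between groups and not between genes. The probes the results turn on lie, in the array files' mm9 coordinates, at chr6:88833619-88833678 for Mcm2, chr7:38882937-38882960 for Ccne1 and chr17:56462770-56462829 for Uhrf1, and their exon or UTR was not looked up. "Rose" and "fell" are used for a Benjamini-Hochberg adjusted p under 0.05 over all genes in 1 limma fit of the 8 groups. The labels call the 4 livers of a group biological replicates, so p-values measure the spread between livers.

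The arrays lie on 4 slides, each with 2 groups in separate rows. Both diet groups without agonist at baseline share slide 1 and both with agonist share slide 2. After hepatectomy, the groups on standard diet share slide 3 and those on MCD diet slide 4. Diet comparisons at baseline and agonist comparisons after hepatectomy therefore run within a slide, although the row still differs, and the other comparisons run across slides, where slide and group cannot be told apart. Replicate arrays correlated at 0.94 to 0.988, and 44.4% to 69.7% of the spots of an array were above background.

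Groups follow the scanner file attached to each sample, and the deposited table of processed values goes against them. Of its 32 columns 16 matched an array of another group best, MCD diet being exchanged with standard diet plus agonist, before and after hepatectomy. All 32 columns matched an array of their own replicate number. Fitted with the table's own values and labels, 1 member in place of 17 differed between the diets without agonist at baseline. In that fit 17 rose with agonist on standard diet, and in mice given the agonist 0 rose and 10 fell on MCD diet. These counts carry both the table's labels and its own processing. Which assignment is right could not be settled from the files, and every result below that involves either of these groups rests on the scanner files.

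**Figure D1:**
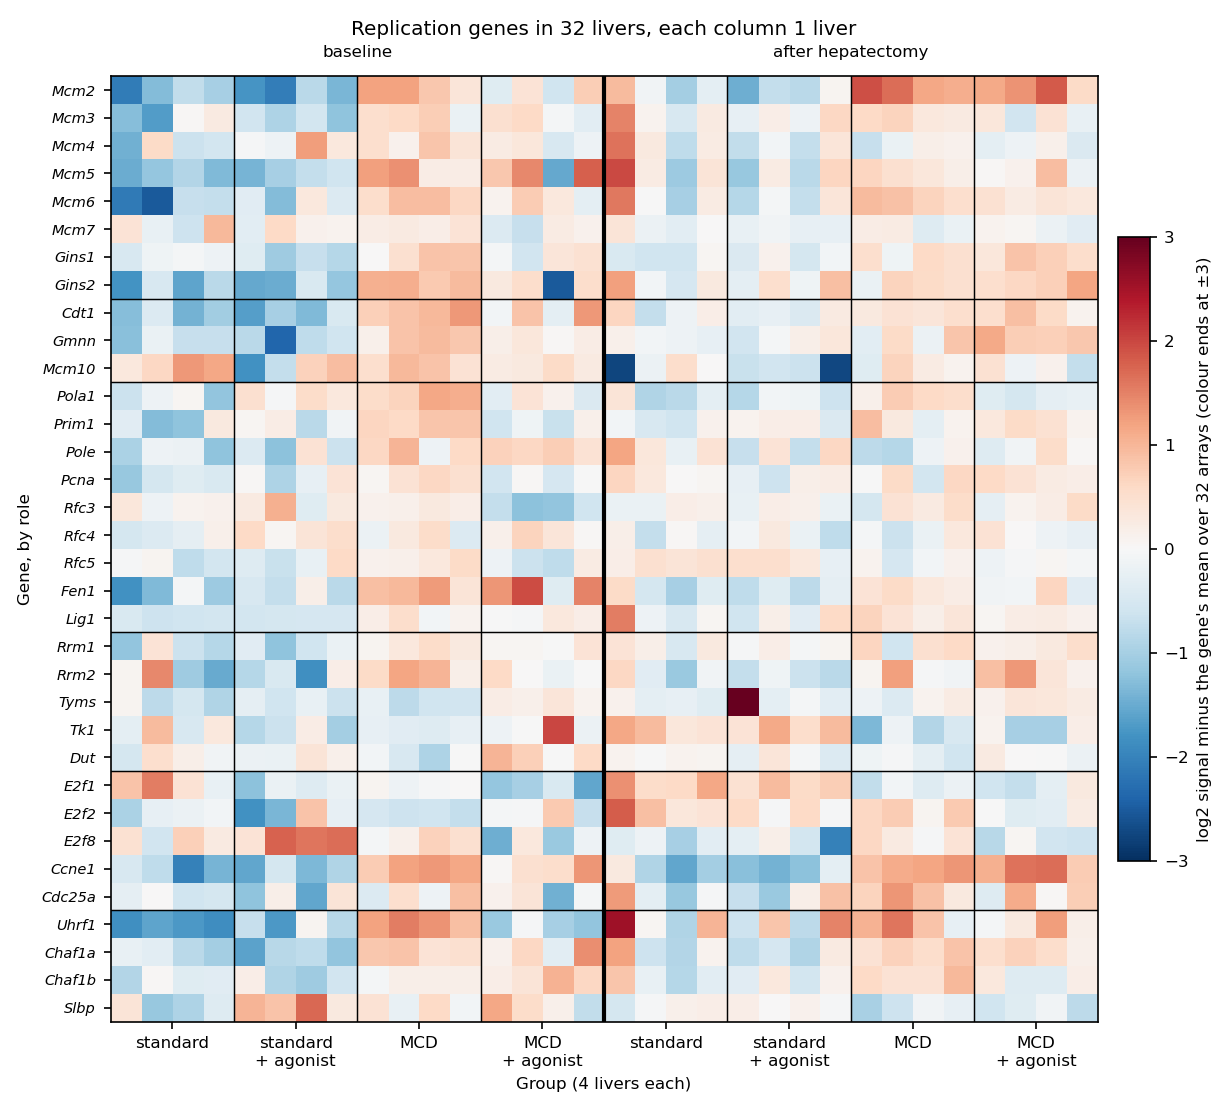
Level of the 34 tested members (rows, by role from helicase at the top to chromatin and histone supply at the bottom) in each of 32 livers (columns, 4 per group), as log2 signal minus the gene's mean over the 32 arrays, with the colour ending at ±3. The 4 MCD livers at baseline are red in most rows of the helicase and licensing blocks, the standard-diet livers at baseline are blue there, and the first standard-diet liver after hepatectomy stands out as red.

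On the MCD diet without agonist, at baseline, 17 of the 34 tested members rose and 0 fell, where 10.7% of all genes tested rose and 15.3% fell. The largest change was that of Uhrf1 (an adaptor that brings the maintenance DNA methyltransferase to newly copied DNA), at 8.02-fold. It was followed by cyclin E1 (Ccne1), Mcm6 and Mcm2, at 4.83, 4.8 and 4.53-fold. The median change over the 34 members was 0.93, against -0.13 over all genes tested. The 4 livers of one diet lay wholly above the 4 of the other for 17 members higher on MCD diet and 0 lower, where this held for 11.1% and 16.8% of all genes.

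Of the 8 helicase genes tested 6 rose: Mcm2, Mcm3, Mcm5, Mcm6 and the GINS subunits Gins1 and Gins2. Mcm2, a subunit of the helicase ring, read -3.13, -2.33, -1.76 and -2.03 in the 4 standard-diet livers and 0.18, 0.18, -0.22 and -0.67 in the 4 MCD livers. Every MCD liver was above every standard-diet liver, and the change was 2.18 ± 0.40 (SE), adjusted p = 0.000251 by limma. Mcm6, of the same ring, read 0.74, 0.34, 2.16 and 2.13 on standard diet and 3.38, 3.78, 3.78 and 3.48 on MCD diet. Livers 1 and 2 of the standard-diet group were the lowest, the groups did not overlap, and the change was 2.26 ± 0.42 (SE) with an adjusted p of 0.000325 by limma. The other risers of this role changed by 0.76 (Gins1) to 2.14 (Gins2). Mcm4 and Mcm7 of the same ring missed the threshold, with changes of 0.98 ± 0.40 (SE) and 0.14 ± 0.27 (SE), so the ring's subunits did not all pass together.

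Of 3 tested genes that license or start the helicase 2 rose. Cdt1, which brings the helicase to origins, read -0.25, 0.61, -0.39 and -0.01 on standard diet and 1.73, 1.88, 1.99 and 2.31 on MCD diet. The groups were more than 1 log2 unit apart at their nearest livers, and the change was 1.99 ± 0.32 (SE), adjusted p = 5.4e-05 by limma. Its inhibitor Gmnn read -2.08, -1.01, -1.52 and -1.51 and -0.66, 0.05, 0.13 and -0.02, a change of 1.40 ± 0.31 (SE) with an adjusted p of 0.00161 by limma. The loader and its inhibitor were thus higher in the same livers. Mcm10, which helps to start the fork, changed by -0.16 ± 0.56 (SE) and did not pass.

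At the fork 5 of 9 genes rose: the polymerase subunits Pola1 and Pole, the primase Prim1, the clamp Pcna and the flap endonuclease Fen1. Fen1, which trims Okazaki fragments, read -0.69, -0.20, 1.06 and 0.02 on standard diet and 2.01, 2.10, 2.38 and 1.5 on MCD diet. The groups did not overlap, liver 3 on standard diet being the nearest, and the change was 1.95 ± 0.39 (SE), adjusted p = 0.000651 by limma. Pola1, the catalytic subunit of the priming polymerase, read -2.05, -1.55, -1.34 and -2.59 and -0.84, -0.73, -0.24 and -0.31, a change of 1.35 ± 0.28 (SE), adjusted p = 0.000906 by limma. All MCD livers were above all standard-diet livers for Pola1 too. Lig1, the ligase that joins the fragments, was higher in all 4 MCD livers but missed the threshold at 0.74 ± 0.28 (SE), adjusted p = 0.0524 by limma. The clamp loader genes Rfc3, Rfc4 and Rfc5 did not pass, at changes of 0.09, 0.32 and 0.61.

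Of 5 tested genes of nucleotide supply 1 rose, the large subunit of ribonucleotide reductase Rrm1. Its livers read -0.45, 1.16, 0.10 and -0.11 on standard diet and 0.82, 1.05, 1.29 and 1.04 on MCD diet. Liver 2 on standard diet overlapped the MCD group, and the change was 0.88 ± 0.29 (SE), adjusted p = 0.0249 by limma. The small subunit Rrm2 read 2.16, 3.52, 1.02 and 0.56 and 2.64, 3.25, 3.09 and 2.26. Its standard-diet livers spanned nearly 3 log2 units, and the change of 0.99 ± 0.48 (SE) had an adjusted p of 0.121 by limma. The thymidylate enzymes Tyms and Tk1 and the dUTPase Dut changed by -0.01, -0.43 and -0.38 and did not pass. A dimmer probe for Tk1, which carries another transcript accession, did fall by 1.21 (adjusted p = 0.00708 in limma's fit of all probes), so the tested probes of that gene differ.

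Among the regulators only Ccne1, the cyclin that starts S phase, rose of 5 tested. It read 0.10, -0.20, -1.45 and -0.82 on standard diet and 1.34, 1.78, 1.87 and 1.73 on MCD diet. The MCD livers were tightly grouped and all above the others, and the change was 2.27 ± 0.36 (SE), adjusted p = 4.69e-05 by limma. E2f1 read 0.36, 1.05, -0.07 and -0.72 and -0.41, -0.65, -0.52 and -0.47, a change of -0.67 ± 0.31 (SE) with an adjusted p of 0.104 by limma. The mean of this E2F activator was lower on MCD diet, without passing the threshold. E2f2, E2f8 and the phosphatase Cdc25a did not pass, at -0.25, 0.10 and 0.55.

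Of the genes that package new DNA, Uhrf1 and Chaf1a rose, 2 of 4. Uhrf1 read -3.47, -3.21, -3.36 and -3.48 on standard diet and -0.41, -0.09, -0.28 and -0.73 on MCD diet. The groups were separated by over 2 log2 units, and the change was 3.00 ± 0.54 (SE), adjusted p = 0.000217 by limma. Chaf1a, the large subunit of the histone chaperone that follows the fork, read -1.58, -1.68, -2.16 and -2.40 and -0.55, -0.52, -0.95 and -0.88, a change of 1.23 ± 0.36 (SE), adjusted p = 0.0114 by limma, with no overlap. Its partner Chaf1b and the histone mRNA binding protein Slbp did not pass, at 0.50 and 0.70.

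Leaving out 1 liver at a time gave 14 to 19 members called. Mcm3, Gins1, Pole and Rrm1 each lost their call without at least 3 of the 8 livers. Without standard-diet liver 1, all 4 did, with adjusted p of 0.127, 0.0714, 0.0624 and 0.108 by limma. Scaling each array to its median moved the median of all genes from -0.13 to 0.23 and the share of higher among called genes from 41.1% to 78.3%. All 17 calls remained under that scaling, and 23 members passed.

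Other cell-cycle lists were counted in the same comparison. Of 26 tested further replication genes 3 rose (the primase subunit Prim2, the fork protein Timeless and Wdhd1) and 1 fell (Rnaseh2a, at -1.63, adjusted p = 9.81e-06 by limma), with a median of 0.28. Genes of this list thus rose about as often as all genes tested, of which 10.7% rose and 15.3% fell. The 13 tested mitosis genes were all above background on the 4 MCD arrays, while 7 were on all 4 standard-diet arrays and Cdk1 and Top2a on none. All 13 passed the test upward, but genes kept only through groups where they are high had to differ, so nothing is read from this count and no median is given. The proliferation marker Mki67 read -2.12, -1.46, -1.67 and -1.84 on standard diet and 1.64, 1.60, 1.44 and 0.20 on MCD diet. Of 11 regulators of G1 phase 5 rose and 1 fell. Cyclin D1 (Ccnd1) was among the risers, with a change of 3.18 ± 0.48 (SE), adjusted p = 3.12e-05 by limma.

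Cell-type markers moved in the same livers. The summed signal of 7 recruited macrophage markers (Trem2, Gpnmb, Cd68 and others), in units of each array's 75th percentile, was 3.82 to 5.81 on standard diet and 22.5 to 42.8 on MCD diet, and 6 of the 7 rose. Resident macrophage markers summed to 38.7 to 68.5 and 92.1 to 256, with 3 of 5 rising, and 6 of 7 stellate cell markers to 2.97 to 4.01 and 6.18 to 9.44, with 3 of the 7 rising. All 8 hepatocyte markers were above background in all 8 groups, as the label of liver calls for, and summed to 6540 to 8800 and 4420 to 5310, with 2 of 8 falling. Markers of lymphocytes, endothelial cells, cholangiocytes, red cells and neutrophils had 2, 1, 0, 0 and 2 genes that rose and 1, 0, 1, 1 and 0 that fell. Lymphocyte markers summed to 6.06 to 9.06 on standard diet and 3.43 to 5.64 on MCD diet. The sums were 46.8 to 61.3 and 62.4 to 81.7 for endothelial cells, and 2.42 to 6.97 and 1.77 to 1.86 for cholangiocytes. They were 389 to 804 and 195 to 757 for red cells, and 4.01 to 7.31 and 5.27 to 23.1 for neutrophils. The part of these cells in the rise of the replication genes was not tested.

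**Figure D2:**
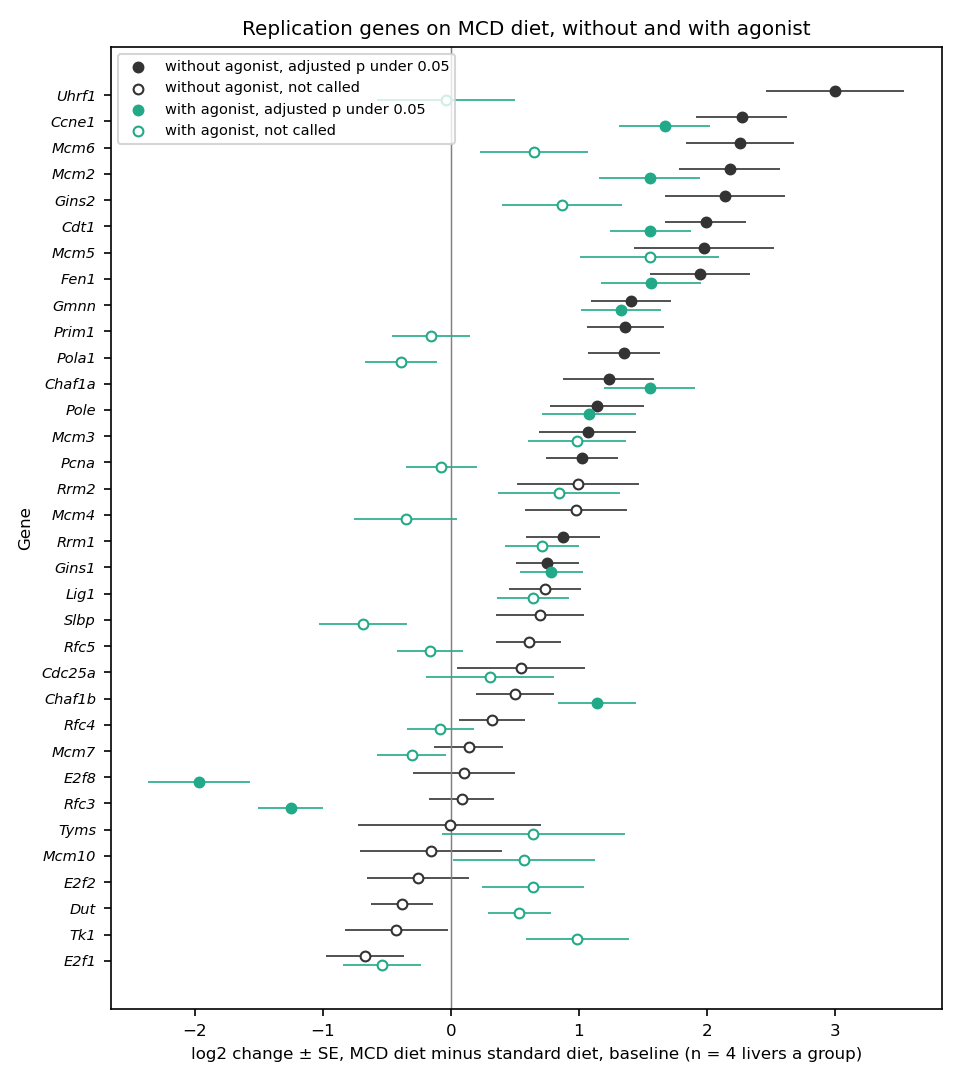
Change on MCD diet against standard diet at baseline for the 34 tested members, without agonist (black) and with agonist (green), as log2 change ± SE from limma, n = 4 livers a group; filled points passed an adjusted p under 0.05. Uhrf1, Mcm6, Pola1, Prim1 and Pcna are filled in black and open in green, and E2f8 and Rfc3 are filled in green on the left.

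In mice given the agonist the same diet comparison at baseline gave 9 members that rose and 2 that fell, where 8.1% of all genes rose and 7.07% fell. The median over the members was 0.64, against 0.03 over all genes. The risers were Mcm2, Gins1, Cdt1, Gmnn, Pole, Fen1, Ccne1, Chaf1a and Chaf1b. Of these, 8 were also among the 17 risers without agonist, which is 47.1% of those 17 and 72.7% of the 11 called here; the comparisons share no arrays. Livers did not overlap for 9 members higher and 2 lower on MCD diet, where this held for 7.46% and 6.73% of all genes.

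Cdt1 read -0.62, 0.03, -0.31 and 0.57 on standard diet with agonist and 0.95, 1.89, 0.74 and 2.32 on MCD diet with agonist. The MCD livers were all higher but more spread than without agonist, and the change was 1.56 ± 0.32 (SE), adjusted p = 0.00116 by limma. Ccne1 read -0.99, 0.05, -0.78 and -0.33 and 0.60, 1.05, 1.09 and 1.88, again with no overlap, a change of 1.67 ± 0.36 (SE), adjusted p = 0.00184 by limma. Uhrf1 showed no such gap: its livers read -2.31, -3.34, -1.55 and -2.46 and -2.72, -1.66, -2.62 and -2.80, a change of -0.04 ± 0.54 (SE).

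The falls, of a repressor and of a clamp loader subunit, did not exceed in share the 7.07% of all genes that fell. E2f8, a repressor of E2F targets, read 0.23, 1.59, 1.42 and 1.49 on standard diet with agonist and -1.64, 0.13, -1.29 and -0.32 on MCD diet with agonist. Liver 1 of the former was near the latter, but the groups did not overlap, and the change was -1.96 ± 0.40 (SE), adjusted p = 0.00114 by limma. Rfc3 read -1.37, -0.58, -2.0 and -1.35 and -2.36, -2.87, -2.83 and -2.24, a change of -1.25 ± 0.25 (SE), adjusted p = 0.00116 by limma, also with no overlap.

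Of the mitosis genes 0 of 13 rose or fell here, 8 being above background on all 4 arrays of each group, and Mki67 changed by -0.31 ± 0.63 (SE). Of the further replication genes 2 of 26 rose, Wdhd1 by 1.76 ± 0.28 (SE) (adjusted p = 9.49e-05 by limma) and Orc5. That share was near the 8.1% of all genes that rose. Summed recruited macrophage markers were 9.76 to 19.5 and 7.73 to 25.9, with 1 of 7 rising, and resident macrophage markers 108 to 171 and 48.5 to 96, with 3 of 5 falling. Their part in the result was not tested. Leaving out 1 liver at a time gave 9 to 13 members called, and Pole lost its call without any of 7 of the 8 livers (adjusted p 0.0555 to 0.162 by limma). Gins1 lost it without livers 2 or 4 on standard diet or livers 3 or 4 on MCD diet (adjusted p 0.0631 to 0.0959).

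Whether the agonist changed the diet's effect was tested as the interaction at baseline, in which a slide shift common to all genes of a slide's arrays cancels. It was called for 5 members by the probes used, all 5 negative, so for these the diet change was lower with agonist than without. Second probes were called in both directions: that of Tk1 at 1.43 (adjusted p = 0.0428 in limma's fit of all probes), beside 1.41 for the probe used, and that of Rfc4 at -1.10 (adjusted p = 0.0346), beside -0.41. Over all genes 6.15% were positive and 4.94% negative. Uhrf1 had an interaction of -3.04 ± 0.76 (SE), adjusted p = 0.0112 by limma, and E2f8 one of -2.07 ± 0.56 (SE), adjusted p = 0.0178. The priming pair Pola1 and Prim1 had -1.74 ± 0.40 (SE) and -1.52 ± 0.43 (SE), with adjusted p of 0.00611 and 0.0208 by limma, and Rfc3 had -1.34 ± 0.36 (SE), adjusted p = 0.0165. For the other 29 members tested, among them Mcm2, Cdt1 and Ccne1, no difference between the diet effects was called, at interactions of -0.63 ± 0.56 (SE), -0.43 ± 0.45 (SE) and -0.60 ± 0.50 (SE). Of the mitosis genes 10 of 13 had a negative interaction, a count open to the same limit of dim groups. Under median scaling 10 members were called, the first 5 among them, while the median of all genes moved from 0.18 to -0.35. Uhrf1, E2f8 and Rfc3 lost their call with normexp background correction. They also lost it with the deposited values, as labelled or placed at the arrays they match. Prim1 lost its call in a fit of the compared groups alone, and Pola1 kept its call in all 9 alternatives.

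With the agonist on standard diet at baseline 1 member rose and 1 fell, near the background of 3.31% of all genes that rose and 3.21% that fell. These groups lie on different slides. Slbp read 0.17, -1.37, -1.15 and -0.61 without and 0.80, 0.64, 1.49 and 0.07 with agonist, a change of 1.49 ± 0.34 (SE), adjusted p = 0.011 by limma, and liver 1 without agonist overlapped the treated group. A second probe for Slbp had no call in this comparison. E2f1 read 0.36, 1.05, -0.07 and -0.72 and -1.72, -0.69, -0.87 and -0.70, a fall by 1.15 ± 0.31 (SE) with an adjusted p of 0.0239 by limma, and liver 4 without agonist lay among the treated livers. Slbp lost its call without treated liver 3 (adjusted p = 0.0536 by limma), and E2f1 without untreated liver 1 or 2 or treated liver 1 (0.0592, 0.0958 and 0.114). Without and with agonist, resident macrophage markers summed to 38.7 to 68.5 and 108 to 171 (4 of 5 rising), recruited macrophage markers to 3.82 to 5.81 and 9.76 to 19.5 (0 of 7 called) and endothelial markers to 46.8 to 61.3 and 72.1 to 97.6 (1 of 5 rising). Their part was not tested.

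On MCD diet at baseline, 1 member rose with agonist and 5 fell, where 8.88% of all genes rose and 4.39% fell. The members' median was -0.47, against 0.14 over all genes; these groups also lie on different slides. Uhrf1 read -0.41, -0.09, -0.28 and -0.73 without agonist and -2.72, -1.66, -2.62 and -2.80 with it. All treated livers were lower, and it fell by 2.08 ± 0.54 (SE), adjusted p = 0.0122 by limma. Rfc3 read -1.52, -1.5, -1.34 and -1.45 and -2.36, -2.87, -2.83 and -2.24, a fall by 1.12 ± 0.25 (SE), adjusted p = 0.00535 by limma, with no overlap.

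Prim1, the small primase subunit, read 1.28, 1.24, 1.47 and 1.47 without agonist on MCD diet and 0.04, 0.51, -0.02 and 0.79 with it. The treated livers were all lower, and the fall was 1.04 ± 0.30 (SE), adjusted p = 0.0225 by limma. E2f1 and Pola1 fell as well, by 1.02 and 0.93. Dut, which keeps uracil out of DNA, went the other way, from -0.25, -0.64, -1.09 and -0.17 to 0.86, 0.55, -0.19 and 0.43, a rise of 0.95 ± 0.24 (SE), adjusted p = 0.0113 by limma. Treated liver 3 was the lowest of its group and overlapped the untreated livers.

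The helicase genes had 0 of 8 called with agonist on MCD diet and a median of -0.49, and Mcm2 changed by -0.85 ± 0.40 (SE). Of 13 mitosis genes 12 fell, 8 of the 13 being above background on all 4 treated arrays and Cdk1, Kif11 and Top2a on none, so sizes are not given for the list, and Mki67 fell by 2.29 ± 0.63 (SE), adjusted p = 0.0173 by limma. The summed recruited macrophage markers went from 22.5 to 42.8 without agonist to 7.73 to 25.9 with it, with 0 of 7 called. Resident macrophage markers went from 92.1 to 256 to 48.5 to 96, with 4 of 5 falling, and hepatocyte markers from 4420 to 5310 to 5230 to 8440, with 0 of 8 called. Their part was not tested. Leaving out liver 3 or 4 without agonist or treated liver 1 left 3 members called, since Pola1, Prim1 and E2f1 then missed the threshold (adjusted p 0.0506 to 0.0778 by limma). With normexp background correction 0 members rose and 12 fell, with 3 of the 6 calls shared, and with median scaling 0 rose and 9 fell.

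**Figure D3:**
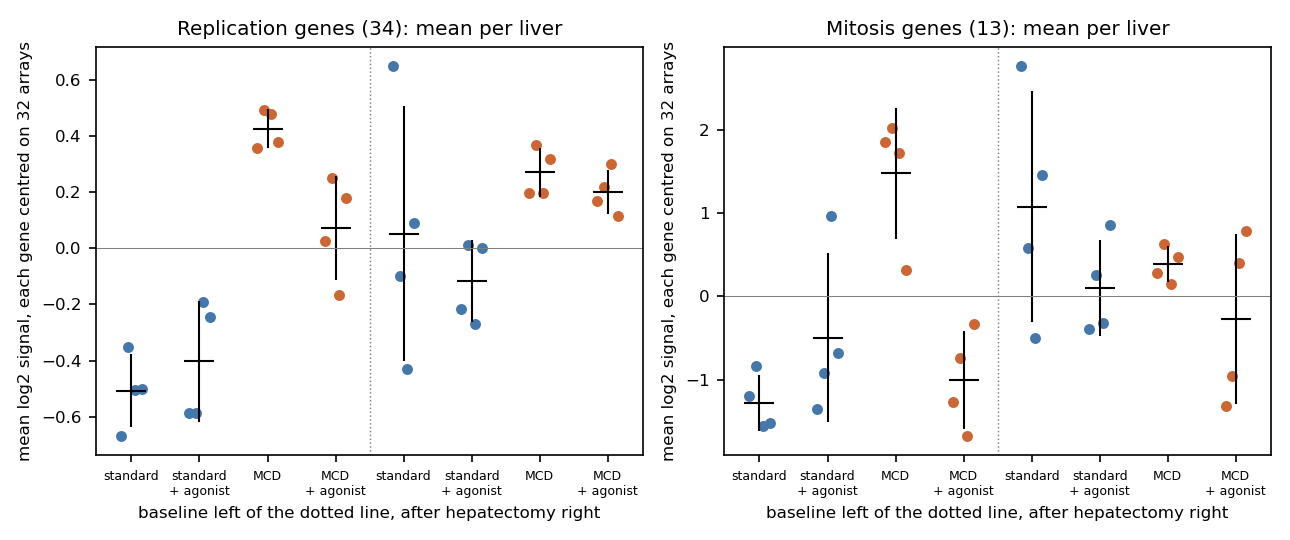
Mean of the 34 replication genes (left) and of the 13 mitosis genes (right) in each liver, after centring each gene on its mean over 32 arrays; points are livers (blue standard diet, orange MCD diet), the bar and whiskers are mean ± SD, and the vertical scales differ. For the replication genes the 4 MCD livers at baseline lie between 0.36 and 0.50 and those with agonist between -0.16 and 0.25; for the mitosis genes the latter lie between -1.68 and -0.34.

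The mean over the members summarises each liver and carries no test, and the mean over mitosis genes includes, in 7 of 8 groups, genes not above background on all 4 arrays. At baseline it was -0.67 to -0.35 on standard diet, -0.59 to -0.19 with agonist, 0.36 to 0.50 on MCD diet and -0.16 to 0.25 on MCD diet with agonist. After hepatectomy it was -0.43 to 0.65 on standard diet, -0.27 to 0.01 with agonist, 0.20 to 0.37 on MCD diet and 0.12 to 0.30 on MCD diet with agonist. The MCD livers with agonist at baseline thus lay above the standard-diet livers and below the MCD livers for replication genes. For the mitosis genes their range of -1.68 to -0.34 overlapped that of standard diet, -1.56 to -0.83. Only 8 and 7 of the 13 mitosis genes were above background on all 4 arrays of these groups. Dim genes thus partly set both ranges, and nothing is read from the overlap. Of the 34 members 12 had their highest group mean on MCD diet at baseline, and 14 and 11 their lowest on standard diet at baseline without and with agonist.

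Diet after hepatectomy was compared across slides. Without agonist 4 members rose on MCD diet and 2 fell, where 5.52% of all genes rose and 5.99% fell, and the median was 0.17 against -0.04. The risers were Mcm2, Gins1, Pola1 and Ccne1, all 4 of which had also risen at baseline. Ccne1 read 0.86, -0.33, -1.0 and -0.45 on standard diet and 1.44, 1.69, 1.75 and 1.89 on MCD diet. All MCD livers were higher, and the change was 1.92 ± 0.36 (SE), adjusted p = 0.000724 by limma. Mcm2 read -0.08, -1.15, -2.05 and -1.33 and 0.89, 0.64, 0.12 and 0.05, again without overlap, a change of 1.58 ± 0.40 (SE), adjusted p = 0.0091 by limma.

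E2f1 and Tk1 fell on MCD diet after hepatectomy, a share near the background of 5.99% of all genes that fell. E2f1 read 0.87, 0.05, 0.11 and 0.67 on standard diet and -1.23, -0.57, -0.89 and -0.68 on MCD diet, a fall by 1.27 ± 0.31 (SE), adjusted p = 0.007 by limma, with no overlap. Tk1, the salvage kinase for thymidine, read 3.61, 3.38, 2.79 and 2.85 and 1.09, 2.29, 1.56 and 1.96. All MCD livers were lower, and it fell by 1.43 ± 0.40 (SE), adjusted p = 0.0198 by limma. Its second probe fell by 1.18 (adjusted p = 0.0171 in limma's fit of all probes).

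With agonist, after hepatectomy, 3 members rose on MCD diet and 1 fell. Of all genes 4.33% rose and 3.9% fell, and the 1 fall did not exceed that background. All 4 members were called in the same direction without agonist. Ccne1 read -0.69, -0.85, -0.67 and 0.28 on standard diet and 1.65, 2.20, 2.24 and 1.33 on MCD diet, a change of 2.34 ± 0.36 (SE), adjusted p = 0.000112 by limma, with no overlap. Mcm2 read -2.49, -1.75, -1.83 and -0.95 and 0.11, 0.32, 0.82 and -0.45, a change of 1.96 ± 0.40 (SE), adjusted p = 0.00205 by limma. For Mcm2 the groups did not overlap either.

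The other calls with agonist after hepatectomy were smaller. Gins1, a subunit of the complex that switches the helicase on, read 0.29, 0.86, 0.21 and 0.66 on standard diet and 1.07, 1.59, 1.45 and 1.25 on MCD diet, a change of 0.84 ± 0.24 (SE), adjusted p = 0.0301 by limma. E2f1 read -0.04, 0.46, 0.09 and 0.26 and -1.10, -1.21, -0.79 and -0.19, a fall by 1.02 ± 0.31 (SE), adjusted p = 0.0359 by limma. Neither overlapped between diets. Ccne1 and Mcm2 were thus the members that rose on MCD diet in all 4 diet comparisons together with Gins1, and Uhrf1 rose in 1 of them.

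The mitosis genes had 0 of 13 called in either diet comparison after hepatectomy, and 8 to 11 of the 13 were above background on all 4 arrays of these groups. Among the further replication genes Wdhd1 rose in both, by 0.98 and 1.41, and 1 more rose without agonist (Timeless). Of all genes 5.52% rose without and 4.33% with agonist. Neutrophil and myeloid precursor markers summed to 10.8 to 37.4 on standard diet and 54.7 to 188 on MCD diet without agonist, with 5 of 7 rising, and to 12 to 65.2 and 11.3 to 72.7 with agonist, with 0 of 7 called. Their part was not tested. The count of 6 without agonist was 3 when standard-diet liver 2 or 3 was left out. The count of 4 with agonist was 2 when liver 1 or 3 on standard diet or liver 2 or 3 on MCD diet was left out. Gins1 lost its call in 6 and 4 of 8 such fits (adjusted p 0.0642 to 0.114 without and 0.0834 to 0.106 with agonist by limma), Pola1 in 6 (0.0527 to 0.124), and E2f1 with agonist in 7 (0.0539 to 0.129). Mcm2 without agonist lost it without standard-diet liver 3 (0.0537), and Tk1 without standard-diet liver 2 or MCD liver 1 (0.0591 and 0.0787).

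**Figure D4:**
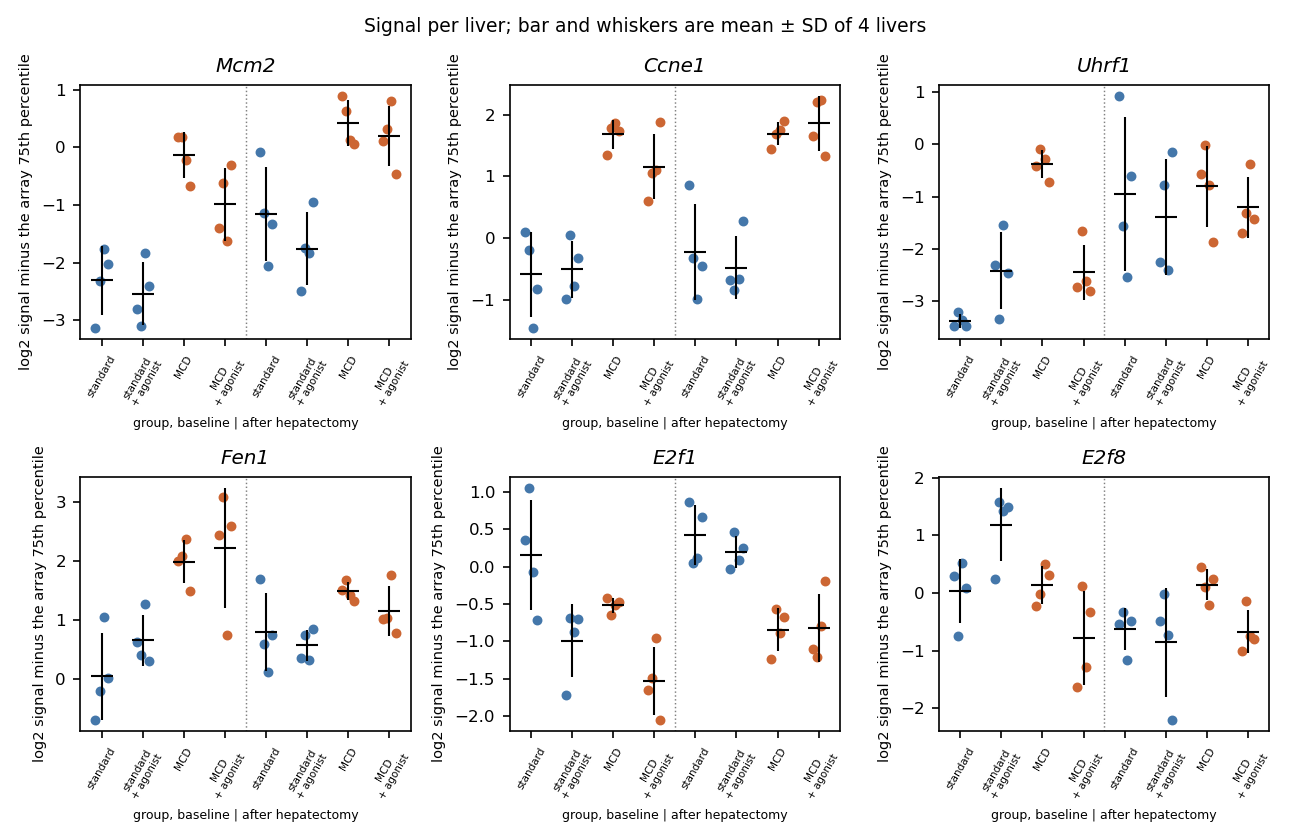
Signal of Mcm2, Ccne1, Uhrf1, Fen1, E2f1 and E2f8 in each of 32 livers (log2, minus the array's 75th percentile), blue for standard and orange for MCD diet, with the mean ± SD of 4 livers; baseline groups lie left of the dotted line and groups after hepatectomy right of it. Mcm2 and Ccne1 are higher on MCD diet on both sides of the line, while the Uhrf1 values on standard diet spread over more than 3 log2 units after hepatectomy.

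The agonist after hepatectomy, compared within a slide, moved 0 of 34 members on either diet. On standard diet 0.00921% of all genes rose and 0% fell, and 1 member had an unadjusted p under 0.05, Tyms, at 1.47 ± 0.72 (SE). That value came from 1 liver, which read 3.52 while the other 3 read -2.57 to -2.33. On MCD diet 0.184% of all genes rose and 0.221% fell. There 3 members had an unadjusted p under 0.05: Pola1 at -0.86 ± 0.28 (SE), Chaf1b at -0.67 ± 0.30 (SE) and E2f8 at -0.82 ± 0.40 (SE), with adjusted p of 0.16, 0.321 and 0.36 by limma. The diet by agonist interaction after hepatectomy was called for 0 members, and for 0% of all genes in the positive and 0.00461% in the negative direction. At an unadjusted p under 0.05 there was 1 member. All shares of all genes in this paragraph are at adjusted p and are no background for its unadjusted counts.

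On standard diet without agonist, 8 members were higher 2 weeks after hepatectomy than at baseline and 0 lower, where 6.33% of all genes rose and 7.44% fell. The median was 0.57, against -0.07 over all genes. Slide, scanner, surgery and the 2 further weeks on diet cannot be told apart here. The same holds for every comparison below of operated with baseline livers. Where the agonist was given, it too ran 2 weeks longer in the operated mice. In the interactions with hepatectomy, longer time on diet or agonist likewise cannot be told from surgery. The risers were Mcm2, Mcm5, Mcm6, Gins2, Cdt1, Pcna, E2f2 and Uhrf1. Uhrf1 read -3.47, -3.21, -3.36 and -3.48 at baseline and 0.92, -1.56, -2.53 and -0.61 after hepatectomy. All operated livers were higher but spread over more than 3 log2 units, with liver 1 the highest, and the change was 2.43 ± 0.54 (SE), adjusted p = 0.00376 by limma.

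The operated liver 1 was also the highest of its group for the next 3 members. Mcm6 read 4.45, 2.84, 1.85 and 3.10 after hepatectomy against 0.74, 0.34, 2.16 and 2.13 at baseline, a change of 1.72 ± 0.42 (SE), adjusted p = 0.0077 by limma, and liver 3 lay among the baseline livers. Cdt1 read 1.66, 0.31, 0.88 and 1.23 against -0.25, 0.61, -0.39 and -0.01, a change of 1.03 ± 0.32 (SE), adjusted p = 0.0288 by limma. The clamp Pcna read 3.59, 3.26, 2.95 and 2.99 against 1.80, 2.41, 2.59 and 2.48, a change of 0.88 ± 0.28 (SE), adjusted p = 0.0339 by limma. Pcna did not overlap between the groups, while Cdt1 did.

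That liver 1 had the highest value of its group for 27 of 34 members, and liver 3 the lowest for 22. Without liver 1, 1 member was called, Uhrf1, and 7 calls were lost, Mcm6 by the least (adjusted p = 0.0523 by limma). Without liver 3, 13 were called. Without operated liver 2 or 4 or baseline liver 1 or 4, the counts were 4, 4, 2 and 5. In a fit of these groups alone 0 members were called. Of the 13 mitosis genes 11 rose, 8 of the 13 being above background on all 4 operated arrays and 7 on all 4 baseline arrays, and their centred mean in the operated livers was 2.78, 0.59, -0.51 and 1.46. Recruited macrophage markers summed to 8.19 to 113 after hepatectomy, against 3.82 to 5.81 at baseline, with 6 of 7 rising, and all 5 resident macrophage markers rose. Hepatocyte markers went from 6540 to 8800 to 3940 to 6460 (2 of 8 falling), neutrophil and myeloid precursor markers from 4.01 to 7.31 to 10.8 to 37.4 (2 of 7 rising) and stellate markers from 2.97 to 4.01 to 4.22 to 25.4 (1 of 7 rising). Their part was not tested.

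On MCD diet without agonist 0 members were called after hepatectomy against baseline, with 2 at an unadjusted p under 0.05, E2f2 at 1.18 ± 0.40 (SE) and Pole at -0.94 ± 0.36 (SE). Over all genes 6.46% rose and 2.99% fell at adjusted p, which is no background for the unadjusted count. The mitosis genes had 1 of 13 called, Cdc20, which fell by 2.18 ± 0.70 (SE). The difference between the diets in the change after hepatectomy was called for 2 members, both negative, where 1.61% of all genes were positive and 0.99% negative. Pole, the leading-strand polymerase, read -1.42, -0.64, -0.65 and -1.68 and 0.72, -0.14, -0.71 and -0.04 on standard diet before and after surgery, and 0.15, 0.53, -0.63 and 0.13 and -1.27, -1.32, -0.64 and -0.34 on MCD diet. Its mean was higher after surgery on standard diet (1.05) and lower on MCD diet (-0.94), but neither change passed the threshold alone. The interaction was -1.99 ± 0.52 (SE), adjusted p = 0.0361 by limma.

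Uhrf1 read -0.41, -0.09, -0.28 and -0.73 at baseline and -0.57, -0.01, -0.78 and -1.86 after surgery on MCD diet. Liver 4 after surgery lay more than 1 log2 unit below every baseline liver, and the interaction was -2.86 ± 0.76 (SE), adjusted p = 0.0401 by limma. Both interactions were lost in most fits that left out 1 liver, Pole in 9 and Uhrf1 in 11 of 16 (adjusted p 0.0622 to 0.0825 and 0.0539 to 0.0892 by limma). These fits gave 0 to 4 members called, 0 for example without standard-diet liver 1 at baseline or after surgery, and 4 without the operated standard-diet liver 3.

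With agonist on standard diet, 3 members rose after hepatectomy and 1 fell, where 2.97% of all genes rose and 4.41% fell. E2f8 read 0.23, 1.59, 1.42 and 1.49 at baseline and -0.48, -0.01, -0.73 and -2.20 after surgery. No livers overlapped, liver 4 being the lowest after surgery, and it fell by 2.04 ± 0.40 (SE), adjusted p = 0.00338 by limma. E2f1 read -1.72, -0.69, -0.87 and -0.70 and -0.04, 0.46, 0.09 and 0.26, a rise of 1.19 ± 0.31 (SE), adjusted p = 0.0185 by limma. The 1 fall did not exceed the background of 4.41% of all genes that fell, so no joint pattern of activator and repressor is read.

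Gmnn read -1.63, -3.20, -1.58 and -1.41 at baseline and -1.39, -0.88, -0.65 and -0.46 after surgery in this treated group, a change of 1.11 ± 0.31 (SE), adjusted p = 0.0286 by limma. Tk1 read 1.59, 1.81, 2.67 and 1.42 and 2.84, 3.57, 2.96 and 3.40, a change of 1.32 ± 0.40 (SE), adjusted p = 0.0431 by limma. Neither overlapped, although Gmnn liver 2 at baseline stood far below the others, and without it the change was 0.70 with an adjusted p of 0.129 by limma. Gmnn also lost its call without operated liver 2, 3 or 4 (0.0538, 0.0762 and 0.0972), and the second probe of Tk1 had no call here (0.48, adjusted p = 0.381). Tk1 lost its call without any of 7 of the 8 livers (0.057 to 0.108), and E2f1 without baseline liver 1 or operated liver 2 (0.0763 and 0.053). Without operated liver 2, 1 member was called, and without baseline liver 1 or 2 or operated liver 3 or 4, 2 were.

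With agonist on MCD diet 1 member rose after hepatectomy, where 3.74% of all genes rose and 6.3% fell, so the rise did not exceed the background. Rfc3 read -2.36, -2.87, -2.83 and -2.24 at baseline and -1.92, -1.55, -1.42 and -1.08 after surgery. All operated livers were higher, and the change was 1.08 ± 0.25 (SE), adjusted p = 0.0079 by limma. Hepatocyte markers summed to 5230 to 8440 at baseline and 3640 to 4550 after surgery (3 of 8 falling), and red cell markers to 256 to 503 and 123 to 193 (1 of 4 falling), and their part was not tested. The count was 2 without baseline liver 3 or operated liver 4 and 3 without baseline liver 4, and with normexp background correction 13 members were called, Rfc3 not among them. On MCD diet the agonist's effect before and after hepatectomy was not called as different for any of 34 members. Of all genes 0.29% were called positive and 0.825% negative. At an unadjusted p under 0.05 there were 10 members, and the shares of all genes, taken at adjusted p, are no background for that count.

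Across all 16 comparisons 9 members were called in none: Mcm4, Mcm7, Mcm10, Rfc4, Rfc5, Lig1, Rrm2, Tyms and Cdc25a, by the probes used. Mcm2, E2f1 and Uhrf1 were called in the most, 5 each. E2f1 fell in 4 of these and rose in 1. Mcm2 rose in 5, the 4 diet comparisons and hepatectomy on standard diet. Uhrf1 rose in 2, fell in 1 and had a negative interaction in 2. Beside the second-probe calls of Tk1 and Rfc4 given above, a second probe of Mcm3 rose on MCD diet with agonist at baseline (1.27, adjusted p = 0.0135 in limma's fit of all probes) where the brighter probe missed the threshold, and a second probe of Chaf1b rose after hepatectomy with agonist on standard diet (1.37, adjusted p = 0.0495).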

How the data were processed

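Cy3 signals of 32 one-colour Agilent arrays, 1 per liver, were read from the deposited scanner files. Per the file headers, Feature Extraction 10.7.3.1 made the processed signal, a background-corrected intensity on a linear scale. The deposited table of log2 values has no stated scaling. The submitters' processing notes name limma without a version. Its column medians were 6.53 to 6.55 at baseline and 7.05 to 7.06 after hepatectomy, so it served only as an alternative within each state.

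From the intensities, log2 minus each array's 75th percentile was computed over 59305 non-control spots, leaving out 5010 outlier spots (0.264%), of which 0 were of members. Probes well above background on all 4 arrays of a group were kept, and the brightest probe stood for each of 21710 genes. Names came from accessions or symbols in RefSeq tables for most spots and from the files for 24321. One limma 3.58.1 fit (R 4.3.3) over 8 groups gave all 16 comparisons, with Benjamini-Hochberg adjustment over all genes. The fit was tested on simulated data.

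Values are given for all livers for the 2 smallest adjusted p of each role in the first diet comparison, and elsewhere for up to 4 called members and those called against the majority. From each other list up to 3 genes with the smallest adjusted p, and Mki67, Ccnd1 and Cdkn1a, could be named; Orc5, Prim2 and the Timeless result after hepatectomy were named to complete a count, after their values were seen, as were the probe and Uhrf1 values given beside the tests. The members and lists were chosen with earlier results of these data known. The replicate numbers were not taken to pair the livers: 11 of 48 same-number pairs correlated over 0.1 (-0.207 to 0.444). That cutoff cannot exclude a weak pairing. Alternatives were other background corrections, scalings, filters and probe rules, fits of fewer groups, the replicate block and leaving out each liver. The number of arrays limits the precision.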

Additional observations from a re-analysis of the deposited data

Results flagged for a closer look

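Of 280 sets of 4 livers (a gene or score in a group), 13 (4.64%) had 1 liver set apart from the other 3 by more than Dixon's critical ratio; chance alone marks about 1 in 20. At baseline these were Chaf1b on MCD diet (liver 1 at 1.34), Gmnn on standard diet with agonist (liver 2 at -3.20) and E2f8 in that group (liver 1 at 0.23). On MCD diet with agonist they were Gins2 (liver 3 at -4.53), Mcm10 (liver 3 at 5.52), Tk1 (liver 3 at 4.44) and Uhrf1 (liver 2 at -1.66). After hepatectomy on standard diet with agonist they were Mcm10 (liver 4 at 2.21), Prim1 (liver 4 at 0.21), Tyms (liver 1 at 3.52) and Ccne1 (liver 4 at 0.28). On MCD diet after hepatectomy they were Rrm1 (liver 2 at 0.13) and Rrm2 (liver 2 at 3.30). Tyms stood farthest from its group, nearly 6 log2 units above the other livers. These are values of log2 signal minus the 75th percentile.

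The diet effect at baseline differed with and without agonist, by the interaction in limma, for Pola1 (-1.74), Prim1 (-1.52), Rfc3 (-1.34), E2f8 (-2.07) and Uhrf1 (-3.04). Of these only Pola1 kept its call under every alternative. The change after hepatectomy differed between the diets for Pole (-1.99) and Uhrf1 (-2.86). Both calls were lost without the filter on dim probes, in a fit of the compared groups alone and in most fits that left out 1 liver.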

How the results depend on the processing

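Counts are members called, beside the count in the report. The first diet comparison (17) gave 15 to 23 under every alternative but the deposited table as labelled, and 14 to 19 with 1 liver left out. That table gave 1 there, 17 for agonist on standard diet at baseline (2), 7 and 4 for agonist after hepatectomy on standard and MCD diet (0 and 0), and 0 and 0 for diet after hepatectomy (6 and 4). It turned the direction for Mcm2 (-0.40), Mcm5 (-0.069), Gins1 (-0.62), Gmnn (-0.59), Pcna (-0.34), Rrm1 (-0.089) and Chaf1a (-0.062) for diet without agonist, and for Mcm2 (-1.0), Gins1 (-0.90), Gmnn (-0.84), Ccne1 (-0.036) and Chaf1b (-0.049) with agonist. It also did so for Uhrf1 with agonist on MCD diet (0.12), for Mcm2 (-0.49), Pola1 (-0.069), Tk1 (0.26) and Ccne1 (-0.28) for diet after hepatectomy, and for Mcm2 (-0.27), E2f1 (0.15) and Ccne1 (-0.072) with agonist. These reversals follow from the exchanged columns: with columns placed at the arrays they match, 0 reversed and the first comparison again gave 17. The placed table gave 7 for diet with agonist at baseline (11), 1 for agonist on standard diet (2) and 10 on MCD diet (6).

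Normexp gave 7 for diet with agonist at baseline (11), 12 for agonist on MCD diet (6), 1 for it after hepatectomy (0), 9 and 13 for hepatectomy with agonist on standard and MCD diet (4 and 1), 7 for diet by hepatectomy (2) and 8 for agonist by hepatectomy (0). Median scaling gave 1 for agonist on standard diet (2), 2 for hepatectomy with agonist on standard diet (4), 10 for diet by agonist (5) and 4 for diet by hepatectomy (2). Without the filter, diet with agonist after hepatectomy gave 2 (4), hepatectomy 4 on standard diet (8) and 2 on MCD diet with agonist (1), and diet by hepatectomy 0 (2). Fits of the compared groups alone gave 5 for diet with agonist at baseline, 0 for agonist on standard diet, 0 and 1 for hepatectomy on standard and MCD diet, and 1 for diet by hepatectomy. For these settings the cause was not tested. Over all genes the higher share of calls under median scaling against the report was 16.9% against 66.9% for agonist on MCD diet, 67.7% against 46.0% for hepatectomy on standard diet and 9.62% against 55.5% for diet by agonist.

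With the replicate block the first comparison gave 17, diet with agonist at baseline 10, hepatectomy on standard diet 7 and with agonist 3. In that fit 4 of 66 gene results lost their call. Whether the numbers pair the livers was not settled. With 1 liver left out the counts ran from 9 to 13 for diet with agonist, 1 to 3 for agonist on standard and 3 to 8 on MCD diet, 3 to 7 and 2 to 5 for diet after hepatectomy, 1 to 13 for hepatectomy on standard diet, 1 to 5 and 1 to 3 with agonist on standard and MCD diet, 5 to 7 for diet by agonist and 0 to 4 for diet by hepatectomy. They were 0 to 0 for the other comparisons. A dim probe limits Uhrf1, Mcm2, Gins2 and Tyms, each above background on only 3 of 4 arrays in at least 1 group.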
